A study of Mus musculus with 33 samples.

Results

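The genes described here encode the enzymes that write, copy and remove 5-methylcytosine: *Dnmt3a*, *Dnmt3b*, *Dnmt3l*, *Dnmt1*, *Uhrf1*, *Tet1*, *Tet2*, *Tet3* and *Tdg*. They were chosen by symbol and not by a threshold on their values, though with earlier results of these data known. All 9 were found among the 16336 genes of the expression table. RNA was measured in bulk by stranded poly-A RNA-seq, as TPM (an RNA level corrected for transcript length and library size), in mouse E14Tg2a embryonic stem cells (ESCs) and in 2 derived clones. E14Tg2a is the wild-type (WT) line, of 129/Ola origin. ΔK9.1 and ΔK9.2 are independent clones with a homozygous CRISPR/Cas9 deletion of the region between the *Nanog* enhancer and promoter that carries H3K9me3 in WT cells, so each mutant line is 1 clone. Each line was taken undifferentiated in serum with LIF (day 0) and after 4, 6 and 8 days of embryoid body differentiation without LIF, giving 12 groups and 33 libraries: 3 libraries per group, but 2 per line on day 6. By the study's methods the aggregates were kept on untreated dishes up to day 4 and were then replated sparsely on gelatin, so days 6 and 8 are replated cultures, and time and replating cannot be told apart in any change from day 4 to a later day. The table keeps no read depth, so precision was taken from the replicates.

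DNMT3A and DNMT3B place methyl groups on unmethylated CpGs, and DNMT3L is a catalytically inactive partner that stimulates them. After replication UHRF1 recognises hemimethylated DNA and brings in DNMT1, which copies the mark. TET1, TET2 and TET3 oxidise 5-methylcytosine, and TDG excises the last oxidation products for base excision repair. ESCs leaving the naive state are known to raise the de novo enzymes and to lower *Tet1* and *Tet2*.

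*Nanog*, next to the deleted region, had a mean of 344 TPM ± 21.2 (SD) in WT, 468 ± 16.2 in ΔK9.1 and 426 ± 13.4 in ΔK9.2 on day 0. On day 8 its mean was 26.7 TPM ± 6.84 in WT against 98.9 ± 68.2 and 105 ± 30.5 in the clones. The deleted region itself is not a row of the table. All 8 pluripotency markers examined were detected in every group. In bulk RNA, fewer cells of a type and less RNA per cell cannot be told apart, and a TPM value sums all isoforms of a gene.

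The sequences in front of the transcription start are shown for *Dnmt3b*, *Tet2* and *Tet3*, genes that moved in different ways and whose window lies outside exons of the gene itself. Each is the 250 bases before the RefSeq start on GRCm38.p6 (mm10), written 5′ to 3′ on the strand of the gene, with every CpG, the substrate of these enzymes, in capitals. *Dnmt3b* is at chr2:153649450-153687730 on the plus strand and its window, chr2:153649199-153649448, lies in an intron of the antisense gene *Dnmt3bos*. *Tet2* is at chr3:133463679-133545139 on the minus strand, with the window chr3:133544391-133544640 in an intron of *Tet2*. *Tet3* is at chr6:83362373-83459084 on the minus strand, with the window chr6:83441679-83441928 in an intron of *Tet3* and over an exon of the opposite gene *B230319C09Rik*.
Dnmt3b: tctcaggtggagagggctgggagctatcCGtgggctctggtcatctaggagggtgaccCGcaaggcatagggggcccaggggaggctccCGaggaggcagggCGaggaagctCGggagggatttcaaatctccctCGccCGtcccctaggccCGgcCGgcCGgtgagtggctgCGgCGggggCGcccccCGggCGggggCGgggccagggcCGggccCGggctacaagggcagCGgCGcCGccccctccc
Tet2: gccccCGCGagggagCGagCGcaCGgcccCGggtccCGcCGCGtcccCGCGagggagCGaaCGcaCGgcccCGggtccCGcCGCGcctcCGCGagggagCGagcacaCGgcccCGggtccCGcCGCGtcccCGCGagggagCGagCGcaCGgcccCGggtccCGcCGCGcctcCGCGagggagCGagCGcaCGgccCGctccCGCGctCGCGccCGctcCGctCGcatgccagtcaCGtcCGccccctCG
Tet3: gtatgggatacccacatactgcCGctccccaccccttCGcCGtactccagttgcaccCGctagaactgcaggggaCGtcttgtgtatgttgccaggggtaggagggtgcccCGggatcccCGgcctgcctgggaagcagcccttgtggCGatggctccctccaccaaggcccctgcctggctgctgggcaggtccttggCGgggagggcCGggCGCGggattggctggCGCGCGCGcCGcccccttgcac
The *Dnmt3b* window held 21 CpGs, that of *Tet2* 51 and that of *Tet3* 17, where the median over 32841 mouse promoter windows of this length was 6. The promoter-proximal window of *Tet1* held 15 CpGs and that of *Tdg* 19, and the 3 windows of *Dnmt3l* held 3 to 5. E2F motifs were searched as TTTCCCGC, TTTGGCGC, TTTCGCGC, TTTGCCGC and GCGGGAAA on both strands. One of them was found in 1 window of *Uhrf1* (TTTCGCGC) and, on the other strand, in 1 window of *Dnmt1* (GCGCGAAA), and in none of the windows of the other 7 genes. Of all promoter windows, 1.86% held such a match. These matches are descriptions of the sequence only.

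Of the de novo genes, *Dnmt3a* and *Dnmt3b* exceeded their day 0 level on day 4 in WT and in the clones, and *Dnmt3l* was lower from day 6 onwards. *Dnmt3b* was at 87.2, 26.9 and 34.0 TPM in the WT libraries of day 0, at 298, 387 and 424 on day 4, at 156 and 225 on day 6, then at 73.0, 31.0 and 40.1 on day 8. The 3 libraries of day 4 were above those of every other day, and day 8 overlapped day 0. Replicate 1 of day 0 stood above the other 2. In WT *Dnmt3b* rose from day 0 to day 4 by 3.05 ± 0.40 (SE) on the log2(TPM + 1) scale, the scale of every fold change given here (limma, adjusted p = 4.20e-06). It was still above day 0 on day 6 (log2 fold change 2.09 ± 0.45, adjusted p = 0.000551), and it fell by 2.03 ± 0.45 from day 6 to day 8 (adjusted p = 0.00175). From day 4 to day 6 the value was -0.96 ± 0.45, which did not pass (adjusted p = 0.118).

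*Dnmt3b* in ΔK9.1 was at 39.5, 32.5 and 39.0 TPM on day 0, 343, 276 and 167 on day 4, 280 and 371 on day 6, then 70.4, 55.4 and 94.98 on day 8. The ΔK9.2 libraries gave 64.5, 47.8 and 59.6 TPM, then 218, 372 and 414, then 528 and 476, and on day 8 190, 55.4 and 69.3. Both clones had their highest mean on day 6, whereas WT had it on day 4. On day 6 all 4 clone libraries were above both WT libraries. The share of all genes that separate in this way is not given, here or for the other genes below. The log2 fold change of the clones over WT on that day was 1.10 ± 0.42, which did not pass the test over all genes (adjusted p = 0.156). With a fit on the day 6 libraries alone it passed (adjusted p = 0.0495). In the clones it rose from day 0 by 2.61 ± 0.28 on day 4 and 3.11 ± 0.32 on day 6, and then fell by 2.31 ± 0.32 to day 8.

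*Dnmt3a* had its highest mean on day 4 in all 3 lines. In WT it was at 50.5, 34.9 and 48.9 TPM on day 0, 120, 139 and 124.5 on day 4, 68.1 and 64.7 on day 6, then 59.8, 67.5 and 42.7 on day 8. ΔK9.1 had 30.9, 28.0 and 30.0 TPM on day 0, 115, 87.7 and 70.3 on day 4, 68.7 and 76.8 on day 6, then 58.9, 70.2 and 37.3 on day 8. ΔK9.2 had 43.9, 31.0 and 34.5 TPM, then 121, 98.1 and 83.9, then 98.8 and 80.1, and finally 52.6, 55.9 and 38.8. From day 0 to day 4 *Dnmt3a* rose by 1.51 ± 0.21 in WT (adjusted p = 1.03e-05) and by 1.501 ± 0.15 in the clones (adjusted p = 1.98e-08). On day 6 it remained called against day 0 in the clones (1.27 ± 0.17, adjusted p = 6.46e-07), while the WT value was 0.58 ± 0.24 (adjusted p = 0.0539). All 4 clone libraries of day 6 were above both WT libraries, with a log2 fold change of 0.27 ± 0.22 (adjusted p = 0.601).

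*Dnmt3l*, the stimulating partner, went down instead. It was at 250, 112 and 153 TPM in WT on day 0, 159, 128 and 124 on day 4, 53.0 and 38.9 on day 6, then 10.7, 10.4 and 13.9 on day 8. Day 4 overlapped day 0, and every later library was below both. *Dnmt3l* fell by 1.82 ± 0.45 to day 6 (adjusted p = 0.00243) and by 3.70 ± 0.41 to day 8 (adjusted p = 2.68e-08). In the clones it fell by 1.82 ± 0.32 and 3.10 ± 0.29. On day 8 ΔK9.1 had 11.2, 14.6 and 54.7 TPM and ΔK9.2 9.62, 18.7 and 32.7, so that the library numbered 3 was the highest in both, as it was in WT.

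The make-up of the DNMT3 family turned over. *Dnmt3l* held 64.6% ± 0.232 of the summed TPM of the 3 genes in WT on day 0 and 10.5% ± 3.55 on day 8. *Dnmt3b* held 17.5% ± 4.38 on day 0 and 57.9% ± 5.78 on day 4. On day 6 its share was 62.4% ± 8.67 in WT, 70.7% ± 0.152 in ΔK9.1 and 79.6% ± 1.39 in ΔK9.2 (n = 2 each).

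**Figure D1:**
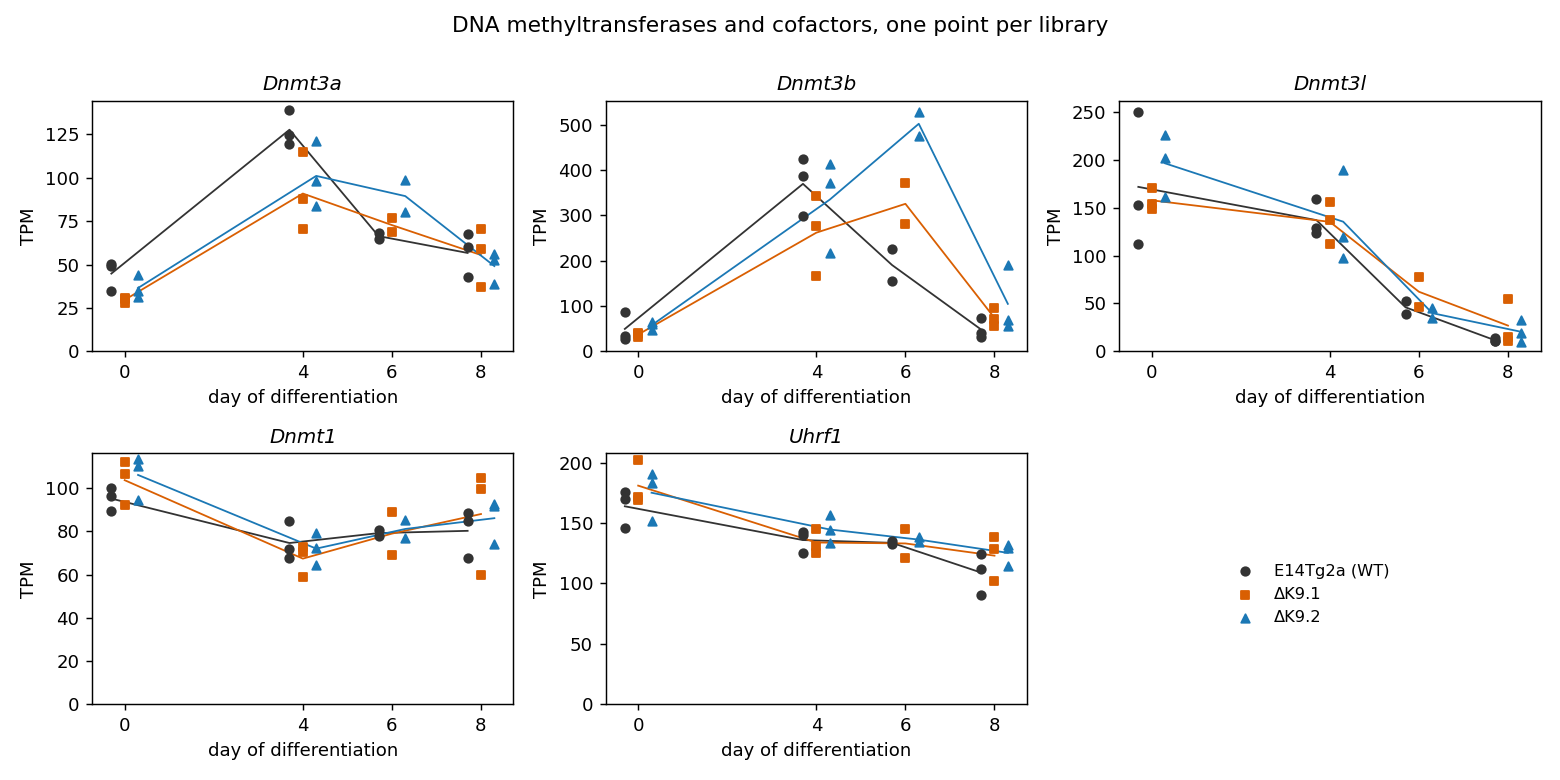
TPM (vertical axis, linear from 0) of the de novo genes *Dnmt3a*, *Dnmt3b* and *Dnmt3l* and of the maintenance genes *Dnmt1* and *Uhrf1* against the day of differentiation, with 1 point per library and lines through the group means. *Dnmt3b* has its highest WT library on day 4 (424 TPM) and its highest clone library on day 6 (528 TPM), and *Uhrf1* has WT means of 164 TPM on day 0 and 109 TPM on day 8.

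None of the changes of the maintenance genes over time reached the size required of a call. *Dnmt1* ranged from 89.4 to 99.8 TPM in the WT libraries of day 0 and from 67.7 to 88.3 on day 8, with all 3 below those of day 0. Its WT log2 fold change was -0.35 ± 0.16 on day 4 and -0.25 ± 0.16 on day 8, and neither passed the test (adjusted p = 0.104 and 0.179). *Uhrf1* ranged from 146 to 176 TPM on day 0 and from 90.2 to 124 on day 8 in WT. Its value on day 8 was -0.59 ± 0.12 (adjusted p = 0.000192), below the log2 fold change of 1 required of a call between days. In the clones *Dnmt1* had -0.58 ± 0.11 on day 4 (adjusted p = 0.000139), with libraries from 58.9 to 79.2 TPM, all below those of day 0, and *Uhrf1* had -0.35 ± 0.09 (adjusted p = 0.00176). The clone values of day 8 were -0.29 ± 0.11 for *Dnmt1*, whose libraries ranged from 92.2 to 113 TPM on day 0 and from 59.97 to 105 on day 8, and -0.52 ± 0.09 for *Uhrf1*. The 12 proliferation markers summed to 2338 to 2642 TPM in WT on day 0 and to 1502 to 1856 on day 8; their part in these values was not tested.

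*Tet1* was the TET gene of highest level in ESCs, and in WT each later day was lower than the one before. It was at 116, 120 and 108 TPM on day 0, 33.05, 43.5 and 34.6 on day 4, 13.2 and 12.6 on day 6, then 8.33, 8.90 and 7.14 on day 8, with no overlap between days. The clone libraries ranged from 94.0 to 145 TPM on day 0 and from 32.6 to 53.0 on day 4. Against day 0 the log2 fold change reached -1.61 ± 0.17 by day 4, -3.05 ± 0.19 by day 6 and -3.67 ± 0.17 by day 8 (adjusted p = 4.75e-14). In the clones it was -1.41 ± 0.12, -2.49 ± 0.13 and -3.16 ± 0.12.

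*Tet2* had already lost most of its RNA on day 4. WT libraries held 31.8, 27.8 and 31.2 TPM on day 0, 8.53, 7.58 and 4.33 on day 4, 2.34 and 2.84 on day 6, then 4.47, 6.97 and 2.60 on day 8. It fell by 2.04 ± 0.38 to day 4 (adjusted p = 0.000247) and by 2.53 ± 0.38 to day 8 (adjusted p = 2.63e-06). In the clones *Tet2* ranged from 21.8 to 42.5 TPM on day 0, from 5.43 to 16.1 on day 4, from 1.93 to 3.22 on day 6 and from 1.46 to 6.60 on day 8. From day 6 to day 8 the WT value was 0.59 ± 0.42 (adjusted p = 0.322).

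*Tet3* was the one TET gene called higher on day 8 than on day 0. The 3 WT libraries of day 0 held 3.60, 2.53 and 2.41 TPM, those of day 4 2.47, 3.64 and 3.21, those of day 6 4.73 and 5.15 and those of day 8 11.1, 12.1 and 7.77. Day 4 overlapped day 0, and all day 8 libraries were above every earlier one. *Tet3* rose from day 0 to day 8 by 1.55 ± 0.22 in WT (adjusted p = 1.66e-06) and by 1.36 ± 0.16 in the clones (adjusted p = 3.94e-08). Before that, the clones had a day 4 value of -0.42 ± 0.16 (adjusted p = 0.0310), below the required size, with means of 2.51 and 1.54 TPM on days 0 and 4 in ΔK9.1 and 2.39 and 1.66 in ΔK9.2. Its share of the summed TET TPM was 1.92% on day 0 and 44.7% on day 8 in WT, where that of *Tet1* was 77.6% and 35.8%. On day 8 *Tet3* held 32.3% in ΔK9.1 and 33.5% in ΔK9.2.

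*Tdg*, the glycosylase, ranged from 37.9 to 42.8 TPM in WT on day 0, was at 54.3 and 61.7 on day 6 and ranged from 44.6 to 53.6 on day 8. The WT log2 fold change was 0.51 ± 0.16 on day 6 (adjusted p = 0.0139) and 0.25 ± 0.14 on day 8 (adjusted p = 0.138), and in the clones it was 0.65 ± 0.11 and 0.58 ± 0.10, all below the required 1. Its clone libraries ranged from 31.4 to 45.9 TPM on day 0 and from 48.8 to 74.0 on day 8. The processed pseudogene *Tdg-ps* was listed at a mean of 1.53 TPM in WT on day 0 and 2.17 on day 8, and 74% of the 25-base words of its transcript also occur in *Tdg* transcripts, so reads could be divided between them and the level of *Tdg* is uncertain.

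**Figure D2:**
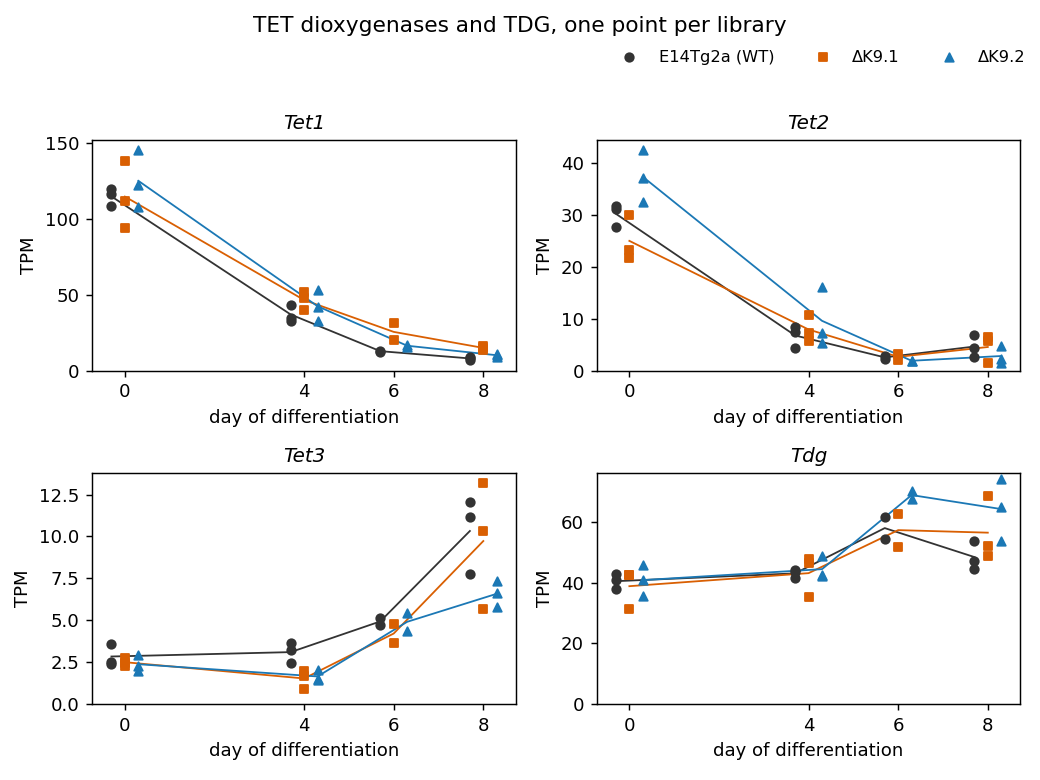
TPM (vertical axis, linear from 0, a scale of its own for each gene) of *Tet1*, *Tet2*, *Tet3* and *Tdg* against the day of differentiation, with 1 point per library and lines through the group means. *Tet1* falls from a mean of 115 to 8.12 TPM in WT while *Tet3* rises from 2.85 to 10.3 TPM.

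**Figure D3:**
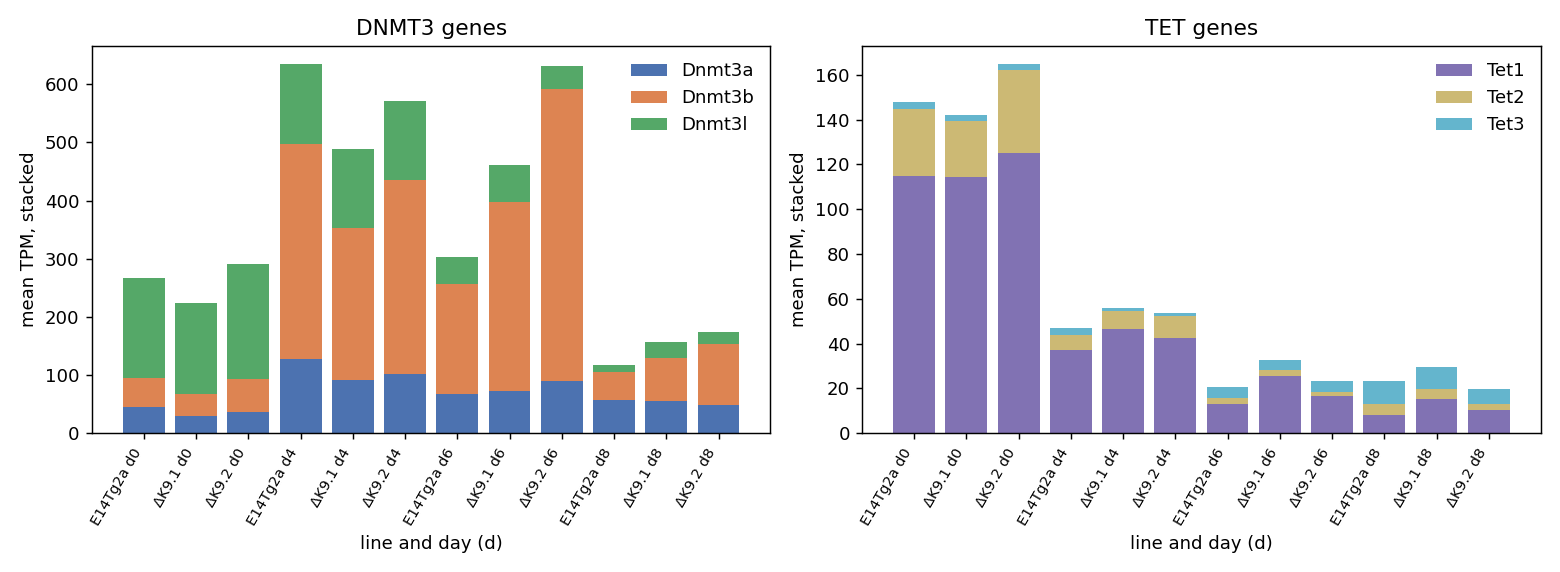
Mean TPM of the DNMT3 genes (left) and the TET genes (right), stacked by gene, for each line and day. The DNMT3 sum is highest on day 4 in WT (634 TPM) and in ΔK9.1 (488 TPM, against 460 on day 6), and on day 6 in ΔK9.2 (631 TPM, against 571 on day 4), and the TET sum is highest on day 0 in all 3 lines.

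Over time, 4 of the 9 genes were called in WT on day 4, where 7.74% of all genes were called: *Dnmt3a* and *Dnmt3b* higher, *Tet1* and *Tet2* lower. A call between days required an adjusted p under 0.05 and an absolute log2 fold change above 1. On day 6 there were 4 calls (17.6% of all genes), with *Dnmt3b* higher and *Tet1*, *Tet2* and *Dnmt3l* lower, and on day 8 again 4 (26.9%), with *Tet3* higher and the same 3 lower. In the clones 4 genes were called on day 4 (5.96% of all genes), 5 on day 6 (15%) and 4 on day 8 (21.1%). They were those of WT, with *Dnmt3a* added on day 6. Between consecutive days in WT, *Tet1* and *Dnmt3l* were called from day 4 to day 6 (9.33% of all genes) and *Dnmt3l* and *Dnmt3b* from day 6 to day 8 (9.26%). Any 1 of 3 libraries, WT replicate 1 of day 4 and replicates 2 and 3 of day 6, removed the first call of *Dnmt3l* when left out (adjusted p = 0.0519 to 0.119), and replicate 2 of day 6 removed its second (adjusted p = 0.0575). The clones had 4 calls from day 4 to day 6 (7.95%), *Tet3* higher and *Tet1*, *Tet2* and *Dnmt3l* lower, and 2 from day 6 to day 8 (6.19%), *Dnmt3l* and *Dnmt3b*. Without ΔK9.1 replicate 2 of day 6 or ΔK9.2 replicate 1 of day 4 the change of *Tet1* from day 4 to day 6 was -0.92 or -0.99, short of the required size.

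The second question was whether undifferentiated clones and WT differ. On day 0 none of the 9 genes was called in both clones, a rule that 0.0758% of 14504 genes met. With the same thresholds but DESeq2 on read counts, the study reported many more genes that differed in both clones, in both directions. The absence of a call among the 9 is therefore weak evidence that they were unchanged. Against WT, ΔK9.1 alone had 14.8% of genes called and ΔK9.2 alone 0.0827%. *Dnmt3a* was called lower in ΔK9.1 (-0.56 ± 0.16, adjusted p = 0.0426), where its 3 libraries were below all of WT, and had -0.29 ± 0.16 in ΔK9.2 (adjusted p = 0.611). The call in ΔK9.1 was lost when any 1 of 6 libraries was left out (WT replicates 1 and 3, the 3 of ΔK9.1 and ΔK9.2 replicate 3, adjusted p = 0.0570 to 0.135), and when genes of every level were tested (adjusted p = 0.0621). Without WT replicate 1, the library that stood high for *Dnmt3b*, that gene was at 0.89 in ΔK9.2 over WT (adjusted p = 0.0453), against 0.39 with it (adjusted p = 0.766). Between the clones, 1.9% of genes and none of the 9 were called. *Tet2* was at 30.1, 21.8 and 23.3 TPM in ΔK9.1 and 42.5, 37.2 and 32.5 in ΔK9.2, without overlap (-0.57 ± 0.14, adjusted p = 0.067). Pairing libraries by number (a replicate block) made it a call (adjusted p = 0.0145, with 10.7% of genes called).

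During differentiation the clones were compared with WT on each day. On day 4 none of the 9 genes was called, with 2.85% of all genes called. *Tet3* was at 1.70, 1.99 and 0.920 TPM in ΔK9.1 and 1.43, 1.52 and 2.02 in ΔK9.2, all 6 below the 3 WT libraries, and its log2 fold change was -0.67 ± 0.19 (adjusted p = 0.0588). Without WT replicate 1 or ΔK9.1 replicate 2 the adjusted p was 0.0478 or 0.0491. For *Dnmt3a* the value was -0.43 ± 0.18 (adjusted p = 0.241), with 5 of 6 clone libraries below all of WT. Under the replicate block both were called lower (adjusted p = 0.0152 and 0.0173) with 8.91% of all genes called.

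On day 6 the count was again 0 of 9, with 3.83% of all genes called. *Tet1* was at 20.0 and 31.2 TPM in ΔK9.1 and 15.7 and 17.2 in ΔK9.2, all above both WT libraries, and its log2 fold change of 0.62 ± 0.18 had an adjusted p of 0.0501. Without ΔK9.1 replicate 2 it was called (0.77, adjusted p = 0.00861). Under the replicate block it was 0.0263, with 10.8% of genes called. Of the clones taken singly, ΔK9.1 passed (0.90 ± 0.21, adjusted p = 0.0148, 3.06% of genes called) and ΔK9.2 gave 0.33 ± 0.21 (adjusted p = 0.563, 1.59% of genes called).

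On day 8, *Tet1* was the 1 gene of the 9 called between clones and WT, where 19.7% of all genes were called. ΔK9.1 held 13.5, 15.2 and 16.4 TPM and ΔK9.2 11.1, 10.2 and 9.35, all 6 above the WT libraries at 7.14 to 8.90, a log2 fold change of 0.56 ± 0.15 (adjusted p = 0.00799). Without WT replicate 3 it was 0.48 with an adjusted p of 0.0569. ΔK9.1 alone was at 0.81 ± 0.17 (adjusted p = 0.00261, 11.3% of genes called) and ΔK9.2 alone at 0.30 ± 0.17 (adjusted p = 0.238, 16.6%). The difference between the clones was not tested. *Dnmt3b* had 0.82 ± 0.35 (adjusted p = 0.0952), and was called without WT replicate 1 (1.17, adjusted p = 0.0302) or ΔK9.2 replicate 2 (0.997, adjusted p = 0.0423), and *Tdg* 0.30 ± 0.12 (adjusted p = 0.0924). With the replicate block, 5 of the 9 were called, all higher in the clones: *Tet1*, *Dnmt3b*, *Dnmt3l*, *Tdg* and *Uhrf1*, against 31.1% of all genes.

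Markers of other cell states differed between the same groups. On day 8 the 8 pluripotency markers, none at 0 in any group, summed to 153 to 295 TPM in WT, 336 to 885 in ΔK9.1 and 403 to 974 in ΔK9.2, with 6 of them called higher in the clones and *Klf4* called lower. The 8 extra-embryonic endoderm markers summed to 283 to 358 TPM in WT and to 33.9 to 125 in the clones, with 5 called lower. The 5 formative epiblast markers summed on day 8 to 27.8 to 60.2 TPM in WT and to 54.7 to 156 in the clones, with 3 called higher. The 8 mesoderm markers summed to 728 to 751 TPM in WT, 168 to 622 in ΔK9.1 and 333 to 748 in ΔK9.2, with 3 called higher and none lower. For the 5 blood and endothelium markers the sums were 51.9 to 243 TPM in WT, 14.7 to 97.7 in ΔK9.1 and 12.9 to 31.0 in ΔK9.2, with 4 called lower. The 4 neural markers in the table overlapped, at 23.8 to 50.1 TPM in WT and 29.0 to 49.1 in the clones. On day 6 the pluripotency markers summed to 1091 to 1240 TPM in WT and 1649 to 2044 in the clones, the mesoderm markers to 605 to 725 and 69.7 to 533, and the extra-embryonic endoderm markers to 121 to 206 and 12.3 to 45.8. The neural markers summed to 44.5 to 51.2 TPM in WT and 54.8 to 70.2 in the clones on that day. None of these 4 sums overlapped between WT and clones. Those of blood and endothelium overlapped on day 6, at 11.9 to 22.2 TPM in WT and 7.34 to 15.3 in the clones. The proliferation markers overlapped as well, at 2043 to 2151 and 1826 to 2179. The formative epiblast markers overlapped on day 6, at 137 to 194 TPM in WT and 177 to 246 in the clones. On day 4 they summed to 244 to 250 TPM in WT and to 169 to 232 in the clones without overlap, and the mesoderm markers to 15.4 to 24.8 and 5.84 to 13.1. Pluripotency sums of day 4 overlapped, at 1769 to 2208 TPM in WT and 1832 to 2151 in the clones. Those of extra-embryonic endoderm were at 69.8 to 605 TPM in WT and 5.49 to 30.6 in ΔK9.1, without overlap. In ΔK9.2 they were at 19.4 to 166 TPM and overlapped WT. Neural sums of day 4 overlapped, at 25.3 to 44.9 TPM in WT and 23.8 to 44.6 in the clones. The blood and endothelium and the proliferation sums of that day also overlapped. On the days for which its sum is given, no list had a marker at 0 throughout a group. The part of these in the values of *Tet1*, *Dnmt3b*, *Tet3* and *Dnmt3a* was not tested.

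The change over time was also compared directly between clones and WT. From day 0 to day 8 none of the 9 genes passed, with 6.3% of all genes called, and *Tet1* had 0.51 ± 0.21 (adjusted p = 0.135). For the change from day 4 to day 6, *Dnmt3b* had 1.46 ± 0.55 (adjusted p = 0.545) and *Dnmt3a* 0.70 ± 0.29 (adjusted p = 0.619), where 0.104% of genes were called. The change from day 6 to day 8 called none of the 9 and 0.392% of all genes.

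**Figure D4:**
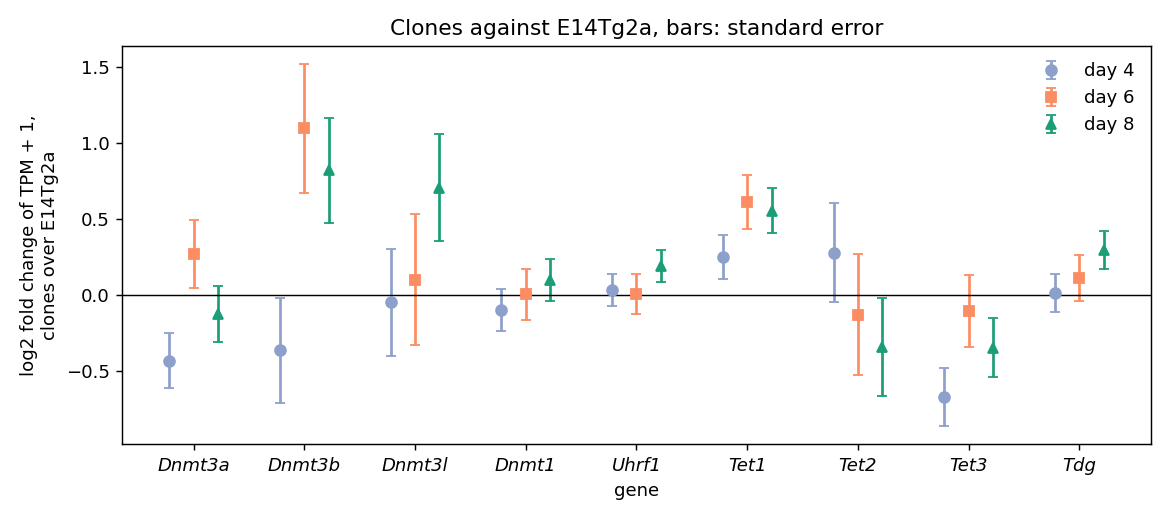
Log2 fold change of TPM + 1 (vertical axis) between the mean of both clones and WT for each of the 9 genes on days 4, 6 and 8, with bars of 1 standard error. The *Tet1* value of day 8 (0.56) is the 1 called, and the *Dnmt3b* value of day 6 (1.10) is above every other point in the plot.

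Other genes of the pathway were read from lists of known function. Of 18 regulators and partners of the DNA methyltransferases, 1 was called higher and 7 lower on day 8 against day 0 in WT, where 26.9% of all genes were called, with a median log2 fold change of -0.46 where the median of all genes was 0.05. *Uhrf2*, a relative of *Uhrf1*, rose by 1.10 ± 0.15. *Prdm14*, a repressor of de novo methylation in ESCs, fell by 2.77 ± 0.26, and *Zfp57*, which binds methylated imprint motifs, fell by 2.44 ± 0.24. *Hells*, a remodeller needed for methylation, fell by 1.63 ± 0.13, and *Trim28*, the corepressor that ZFP57 recruits, by 1.25 ± 0.14. *Prdm14* is also among the pluripotency markers. On day 8, 8 of the 18 were higher in the clones than in WT and none lower (19.7% of all genes called), with a median of 0.21 against -0.0035 over all genes. Among them were *Dppa3* (1.03 ± 0.33), which keeps UHRF1 from chromatin, *Cdca7* (0.71 ± 0.12), the partner of HELLS, *Prdm14* (0.65 ± 0.23) and *Cdca7l* (0.63 ± 0.13). On day 0 the means of *Dppa3* were 22.3 TPM ± 7.82 (SD) in WT, 40.2 ± 1.56 in ΔK9.1 and 37.8 ± 19.9 in ΔK9.2. Those of *Cdca7l* were 29.0, 22.6 and 27.4 TPM in the same order.

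Of 8 readers of methylated DNA, 2 were called higher on day 8 in WT and none lower, near the 26.9% of all genes: *Zbtb4* (1.55 ± 0.24) and *Mbd2* (1.35 ± 0.21). In the clones 3 of the 8 were lower than in WT on that day (19.7% of all genes called), *Zbtb4* (-0.83 ± 0.21), *Mbd1* (-0.67 ± 0.14) and *Mbd2* (-0.54 ± 0.18). Of 16 base excision repair genes and TET partners, 2 rose and 3 fell on day 8 in WT, a share near the 26.9% of all genes called. *Gadd45g*, a stress gene linked to demethylation, rose by 3.48 ± 0.50 and *Cxxc4*, a CpG-binding partner of TET2, by 2.16 ± 0.25. The uracil glycosylase gene *Ung* fell by 1.32 ± 0.16, the glycosylase gene *Neil2* by 1.27 ± 0.31 and *Gadd45a* by 1.22 ± 0.27. *Ung* was the 1 gene of this list called on day 8 between clones and WT, higher by 0.92 ± 0.14, where 19.7% of all genes were called. Its means were already higher in the clones on day 0, at 139 TPM in ΔK9.1 and 121 in ΔK9.2 against 87.2 in WT.

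Of 14 genes that supply S-adenosylmethionine or 2-oxoglutarate, the cofactors of DNMTs and TETs, 4 fell on day 8 in WT and none rose, a share near the 26.9% of all genes called. *Mthfd1* fell by 1.49 ± 0.13, *Shmt1* by 1.40 ± 0.19, *Mat2a*, which makes S-adenosylmethionine, by 1.16 ± 0.21, and *Shmt2* by 1.09 ± 0.29. Against WT on day 8 the clones were higher in *Mat2a* (0.59 ± 0.18) and *Mthfd1* (0.49 ± 0.11) and lower in *Idh1* (-0.57 ± 0.15), 3 of 14 genes where 19.7% of all genes were called.

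Germ line genes whose promoters are known to be methylated in somatic cells were read as a further group, of which 11 of 13 were in the table. In WT 1 of the 11 was lower on day 4 (7.74% of all genes called), 7 on day 6 (17.6%) and 8 on day 8 (26.9%), and none was higher, with a median log2 fold change of -1.76 on day 8. The meiotic gene *Hormad1* fell by 4.05 ± 0.32, the germ cell RNA-binding gene *Dazl* by 2.64 ± 0.38, the piRNA gene *Mael* by 2.55 ± 0.34 and the germ cell helicase gene *Ddx4* by 2.51 ± 0.21. The clones had 7 lower on day 6 (15% of all genes called) and 8 on day 8 (21.1%). Between clones and WT on day 8, *Sycp3* alone of the 11 was called (-0.78 ± 0.28, adjusted p = 0.0483), where 19.7% of all genes were. DNA methylation was not measured in these libraries.

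**Figure D5:**
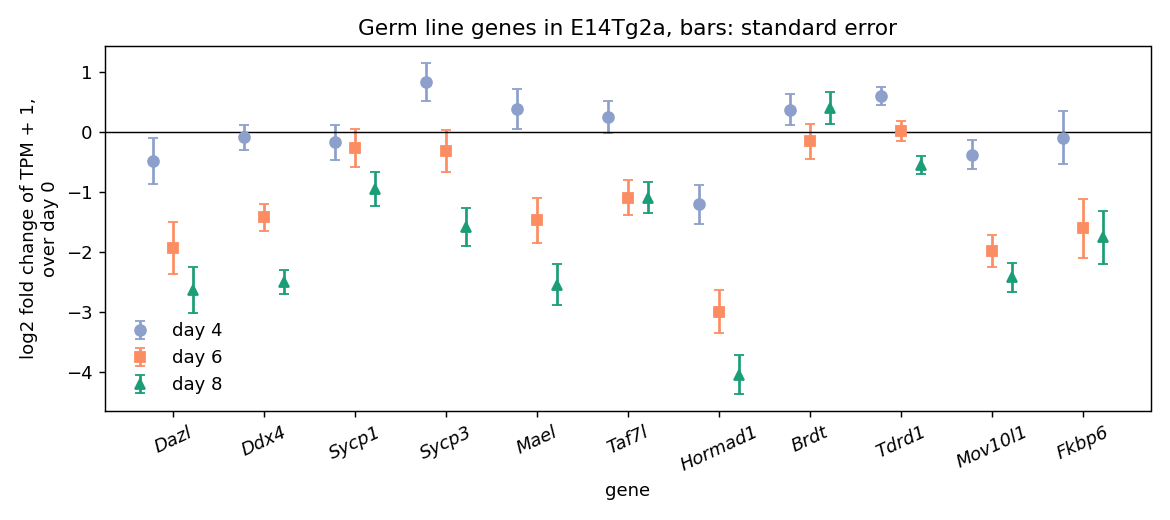
Log2 fold change of TPM + 1 over day 0 (vertical axis) of 11 germ line genes in WT on days 4, 6 and 8, with bars of 1 standard error. *Hormad1* is the lowest on day 8 (-4.05), and *Brdt* lies between -0.16 and 0.40.

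Among all 16336 genes, those most like each member were ranked by Pearson's r over the 12 group means of log2(TPM + 1), a description in which points share lines and days. *Dnmt3b* was closest to its antisense neighbour *Dnmt3bos* (r = 0.98), *Enpp2* and *Foxi3*. *Dnmt3bos* (chr2:153648690-153650286, minus strand) had a mean of 6.81 TPM on day 4 and 2.27 on day 6 in WT, but 3.82 and 5.38 in ΔK9.1 and 5.61 and 8.20 in ΔK9.2, with days 4 and 6 in the same order as for *Dnmt3b* in each line. It was picked for its likeness over these same means, so the shared order is not separate evidence. Counting was by strand, so the pair is separable in principle. *Dnmt3l* was closest to *Zfp980*, *Dppa5a* and *Dppa4*, and *Tet1* to *Gcnt2*, *Nr5a2* and *Spp1*. For *Tet2* the nearest were *Cep55*, *Igip* and *Iqcg*, for *Tet3* *Ccdc50*, *Megf9* and *Btbd7*, and for *Dnmt3a* *Marveld3*, *Stx3* and *Slc9a7*. *Dnmt1* was followed by *Pi4k2a*, *Bcl6* and *Uspl1*, *Uhrf1* by *Atad3a*, *Gm45141* and *Nfatc2ip*, and *Tdg* by *Gm18194*, *Pgr* and *Eif3i*. *Gm18194* is a pseudogene of which no 25-base word occurs in *Tdg* transcripts. Within the family, r was 0.89 between *Dnmt3a* and *Dnmt3b*, 0.93 between *Dnmt3l* and *Tet1*, 0.91 between *Tet1* and *Tet2* and -0.92 between *Dnmt3l* and *Tet3*.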

How the data were processed

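RNA-seq covered E14Tg2a, ΔK9.1 and ΔK9.2 cells on days 0, 4, 6 and 8 (33 libraries). TPM were deposited by the authors, who made them from stranded poly-A, paired-end reads by STAR alignment to mm10 and RSEM quantification by strand, with libraries distant by PCA omitted. Versions are not given in the sources used here. The table also holds the authors' DESeq2 log2 fold changes and FDR between lines on day 0 and between days, which were not used. TPM do not keep depth. The column groups follow the labels.

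Values were tested as log2(TPM + 1) with limma 3.58.1 (trend, R 4.3.3) and Benjamini-Hochberg adjustment over all genes with a group mean of at least 1 TPM: 14504 on the 9 libraries of day 0 and 16336 on all 33. Calls needed an adjusted p under 0.05. The absolute log2 fold change also had to exceed 0.3, in both clones, for day 0 and 1 for comparisons of days. The code was tested on simulated data. The members, gene lists and comparisons were chosen with earlier results of these data known. Named are the 9 members, *Nanog*, the 3 genes most like each member, and of each list up to 4 called genes per direction on day 8. Consecutive days in the clones and the changes between consecutive days were added after the data were seen. By the study's methods the lines were differentiated in parallel in independent assays, so equal replicate numbers pair libraries. The main fits do not use this pairing, and the replicate block does. Deviations from group means correlated with a median r of 0.22 over 33 pairs of equal number (31 above 0.1) and -0.13 over 60 of unequal number. Promoters are RefSeq sequences and gene positions GENCODE M21.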

Additional observations from a re-analysis of the deposited data

Results flagged for a closer look

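From day 4 to day 6 the *Dnmt3b* levels went in opposite directions in WT and clones, but neither change was called (limma, WT -0.96, adjusted p = 0.118, clones 0.50, adjusted p = 0.208). Within equal replicate numbers it went from 387 to 156 and from 424 to 225 TPM in WT, and upwards in all 4 clone pairs, from 276 to 280 and 167 to 371 in ΔK9.1 and from 372 to 528 and 414 to 476 in ΔK9.2. The smallest rise, that of the first ΔK9.1 pair, is within the spread between replicates. The test of the difference, on all libraries of both days, gave 1.46 on the log2 scale and did not pass (limma, adjusted p = 0.545).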

How the results depend on the processing

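For clones against WT, the number of the 9 genes called moved from 0 to 1 on day 4 with a pseudocount of 0.1 or with rescaling by the median ratio (*Tet3*), and to 2 with the replicate block. On day 6 it moved from 0 to 1 with a pseudocount of 0.1, a minimum of 5 TPM, rescaling or the replicate block (*Tet1*) and with only the libraries compared (*Dnmt3b*). On day 8 it moved from 1 to 2 with rescaling, to 5 with the replicate block, and to 0 with an absolute log2 fold change above 1. Leaving out all day 8 libraries numbered 1, 2 or 3 gave 2, 1 and 0, an alternative chosen after seeing the data; the first also gave 1 in place of 2 from day 6 to day 8 in the clones, as did only the libraries compared. ΔK9.1 against ΔK9.2 on day 0 moved from 0 to 1 with rescaling and the replicate block (*Tet2*). WT from day 4 to day 6 moved from 2 to 4 with rescaling, where the count over all genes is not among the larger changes listed below. Without a size threshold the clones had 7, 9 and 9 calls on days 4, 6 and 8 and 5 from day 6 to day 8, and WT 4 from day 6 to day 8. Leaving out 1 library gave 1 to 3 calls for WT from day 4 to 6 and from day 6 to 8, 0 to 1 for clones against WT on days 4 and 6, and 0 to 2 on day 8. The matching counts over all genes are not given. No value of a called gene turned its direction. Over all genes, clones against WT on days 4, 6 and 8 had 465, 626 and 3217 calls, but 77, 223 and 666 with only the libraries compared, 1456, 1763 and 5074 with the replicate block and 130, 265 and 693 above a log2 fold change of 1. In the same order, the changes from day 0 to 8, 4 to 6 and 6 to 8 had 1029, 17 and 64, but 420, 0 and 0 with only the libraries compared, 3011, 46 and 600 with the replicate block, 0 and 16 for the last 2 with a pseudocount of 0.1, and 6 and 19 with a minimum of 5 TPM. Leaving out the libraries numbered 1, 2 or 3 gave 171, 158 and 108 in place of 64, and for clones against WT on day 8 numbers 2 and 3 gave 1876 and 2143. Calls in both clones on day 0 went from 11 to 145 with the block, 20 with a minimum of 5 TPM and 17 with rescaling, and those between clones from 275 to 1545 with the block and 440 with rescaling. A pseudocount of 0.1 gave 2000 for WT day 4 (1265), 1972 and 3922 for clone days 4 and 6 (973 and 2449), and 2569 and 1923 for clone days 4 to 6 and 6 to 8 (1299 and 1011). Without a size threshold WT had 4287, 6472 and 9519 calls on days 4, 6 and 8 (1265, 2882 and 4388) and 4025 and 4196 between consecutive days (1524 and 1512), and the clones 7724, 8396 and 10303 (973, 2449 and 3452) and 7114 and 5276 (1299 and 1011). The causes were not tested. The replicate block changed no other call of the 9 genes. Testing all genes, with no minimum level, removed 1 call, that of *Dnmt3a* in ΔK9.1 on day 0 (adjusted p = 0.0621). The precision is limited by 2 or 3 libraries per group, and the depth is unknown.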

Other observations

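On day 8 the libraries numbered 3 were the lowest of their line for *Dnmt1*, *Dnmt3a*, *Uhrf1* and *Tdg* in all 3 lines, and the highest for *Dnmt3l* in all 3. Those numbered 2 were the lowest for *Dnmt3b* and the highest for *Dnmt3a*, *Tet2* and *Tet3* in all 3 lines, and those numbered 1 the highest for *Uhrf1*.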
